A study of Mus musculus with 2 samples.

Results

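The Rab GTPase genes were followed in poly(A)-selected RNA of primary mouse megakaryocyte-erythroid progenitors (MEP), progenitor cells of the red cell and platelet lineages. The members were all protein-coding genes whose symbol is Rab with a number and an optional letter and digit, 59 of the 21474 protein-coding genes matched. The cells are labelled female C57BL/6J, adult, 5 weeks old, with no treatment named, and a label sets CD16/32 and CD34 beside the lineage markers without saying clearly which of them were absent. There was 1 group of 2 biological replicates, so no comparison between conditions exists. Both replicates carry the same donor identifier, and differences between them may be technical. No p-values are given: 1 library against 1 has no test, and the smallest p of an exact two-sided sign test with n = 2 is 0.5.

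Rab proteins are small GTPases that mark the membranes of the cell's compartments. An exchange factor (GEF) loads the protein with GTP on its membrane, where it recruits effectors such as tethers and motors, and a GTPase-activating protein (GAP) switches it off. GDI then carries the inactive protein through the cytosol, and lipid tails on cysteines at the carboxyl end hold it in the membrane. In blood cells the family is best known for granules: Rab27a, Rab27b, Rab32 and Rab38 are needed for lysosome-related organelles and their release, among them the dense granules of platelets.

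The last 30 coding bases hold the codons of the cysteines that can carry the lipid tails. They are given in lower case with every cysteine codon in capitals, from the longest complete coding sequence of each gene in GENCODE M21. Those of some abundant members and of some granule Rabs are shown.
Rab14: ccccaaccccagagagaaggcTGTggcTGC
Rab1b: cctgtgaagcctgctagcggtggcTGCTGC
Rab44: caatcaaccaagagagctggcTGCTGCcac
Rab11b: cccaacaagctgcagTGCTGCcagagcctg
Rab27a: gaggagaaggagaaggggttgTGTggcTGT
Rab32: cccacaacaaagcccaggtcccagTGCTGC
Rab38: gttgtcagcTGCtctggcTGTgccaaatcc
Rab37: aagaagcgctccagcTGCTGCtcctttgtg
Of the 59 members, 53 had 2 or more cysteine codons among the last 10, against 4.38% of 20973 protein-coding genes with a complete coding sequence. Among the last 4 codons, 44 members had 2 or more, 14 had 1 and 1 had none, and 1.34% of those genes had 2 or more. The pair stood at the last 2 codons in 15 members, such as Rab1b and Rab32, and at the last codon and the last but 2 in 20, such as Rab14 and Rab27a. In Rab11b and Rab37 a pair stood 3 codons before the stop, and in Rab38 the cysteine codons were not adjacent. Rab44 had an adjacent pair, followed by 1 other codon before the stop. With 725 codons it was the longest member, where the family median was 215 and the next longest had 295.

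Most Rab genes were transcribed in these cells. A TPM (transcript abundance scaled for length and to a sum of 1000000 in each library) of 1 or more in both libraries, here called detected, was found for 44 of 59 members, against 46.9% of protein-coding genes. Rab40b passed in replicate 2 alone, and 14 members passed in neither library. The median of the members' mean TPM was 10.4, against 0.73 for all protein-coding genes, and 20.2 against 16.4 among detected genes alone. Rab transcripts together reached a summed TPM of 3415 in replicate 1 and 3267 in replicate 2, which is 0.341% and 0.327% of each library. The 6 highest members held 75.4% and 74.6% of that sum.

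The libraries held 79539457 and 65305321 estimated counts on annotated genes in replicates 1 and 2. A floor of 3 counts was taken as the bound for a count of 0. It was worth 0.0377 and 0.0459 CPM (counts per 1000000) and covers counting error only. All 10 genes of an erythroid and megakaryocytic marker list were detected, with a summed TPM of 542 in replicate 1 and 743 in replicate 2. The 7 matched genes of a neutrophil and monocyte granule list were detected too, with a summed TPM of 30743 in replicate 1 and 16896 in replicate 2. In both libraries the sum of these 7 genes was above that of the 10 genes of the labelled lineages. In bulk RNA, more cells of a type and more RNA per cell cannot be told apart.

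**Figure D1:**
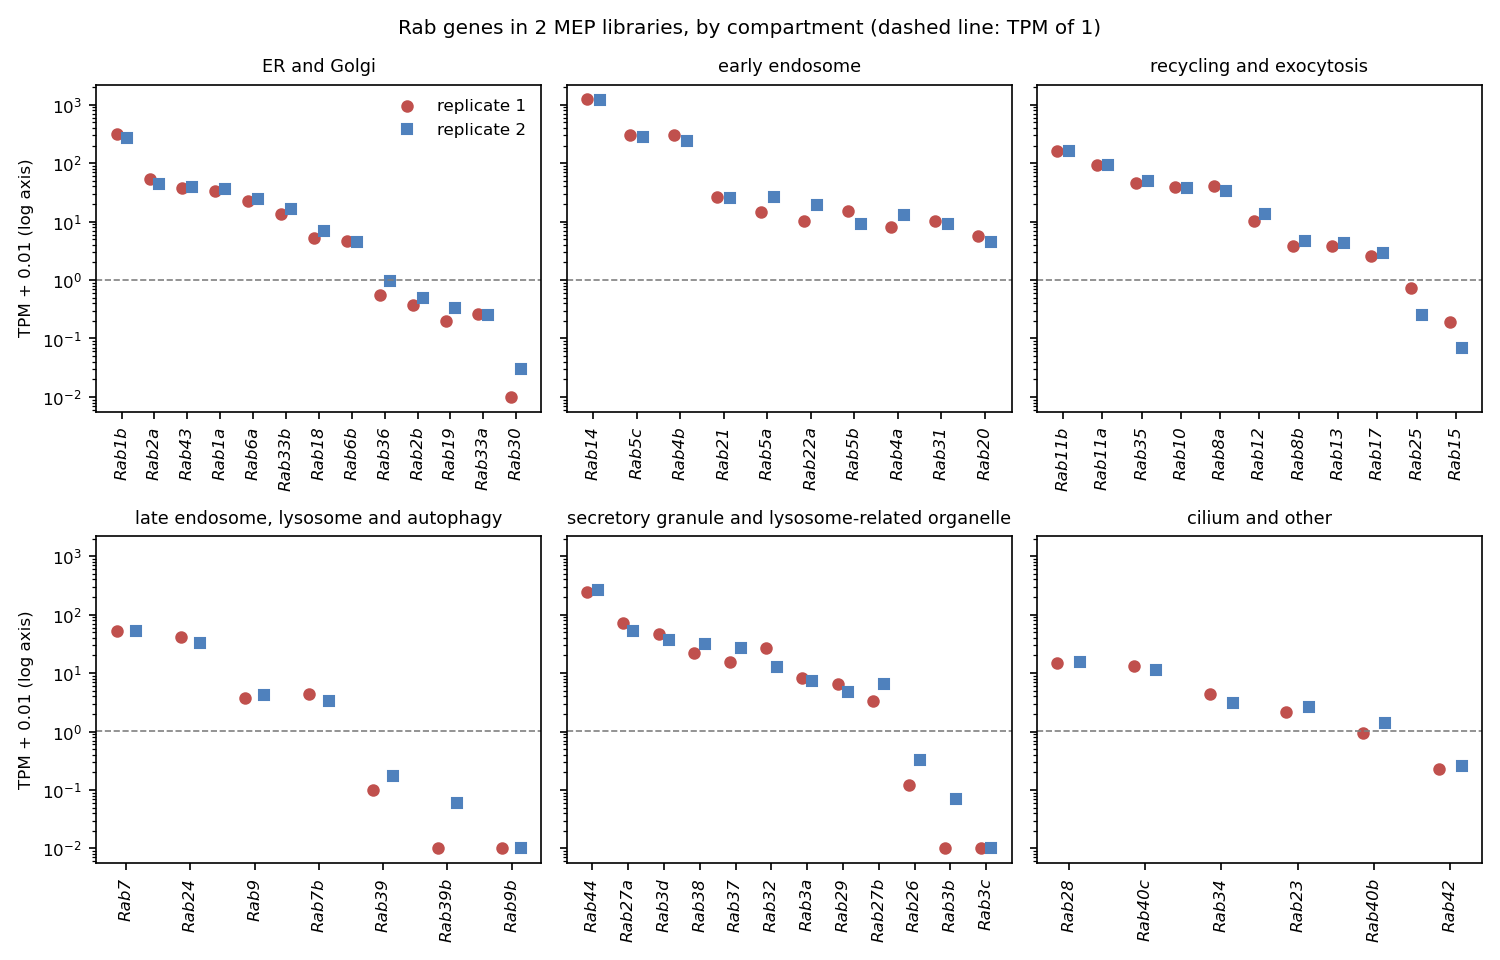
TPM + 0.01 on a log axis for each of the 59 Rab genes, in panels by the compartment the protein is known for; circles are replicate 1, squares replicate 2, and the dashed line marks a TPM of 1. All 10 early endosome members lie above the line in both libraries, and each other panel has members below it.

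Early endosomal Rabs, with Rab14 placed among them, had the largest summed TPM of the groups. Their 10 members were all detected and summed to a TPM of 1936 in replicate 1 and 1844 in replicate 2. With protein-coding transcripts only the sums were 519 and 491, close to the 480 and 440 of ER and Golgi Rabs. The order of these 2 groups therefore depends on where a gene such as Rab14 is placed. Rab14, which works between endosomes and the Golgi, led the family at 1231 and 1221 TPM in replicates 1 and 2, 36.1% and 37.4% of all Rab TPM. Rab5c, of the trio that drives fusion of early endosomes, had 308 and 278 TPM. Rab4b, of the fast recycling pair, had 307 and 238 TPM. These 3 genes stood over 200 TPM in both libraries, and the other members were each below 30. With protein-coding transcripts only, Rab14 had 29.1 and 26.1 TPM and Rab4b 92.4 and 79.6, which leaves Rab5c alone over 200. Rab21 had 26.2 and 24.9 TPM, and Rab5a had 14.5 and 26.7. Rab20 was lowest, with 5.76 and 4.50 TPM.

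ER and Golgi Rabs were led by Rab1b, which acts in transport out of the endoplasmic reticulum, with 316 TPM in replicate 1 and 270 in replicate 2. Rab2a, which acts between the Golgi and its neighbours, had 54.1 and 44.4 TPM. The order after it was Rab43 with a mean of 37.9 ± 1.42, Rab1a with 34.9 ± 2.03 and Rab6a with 23.8 ± 1.34 TPM (SD, n = 2), and Rab43 and Rab1a differed by less than the sum of their SDs. Of the 13 members 8 were detected. Rab36, Rab2b, Rab19, Rab33a and Rab30 were not, and Rab30 had 0 counts in replicate 1 and 1 in replicate 2.

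Recycling and exocytic Rabs were led by the recycling endosome pair, Rab11b with 164 and 163 TPM and Rab11a with 93.9 and 94.1 TPM in replicates 1 and 2. Rab35 had 45.4 and 50.2 TPM, Rab10 had 39.7 and 37.9, and Rab8a had 40.0 and 33.3. Both values of Rab10 lay between those of Rab8a; these 2 are known for carrying exocytic vesicles. Rab25, a close relative of Rab11 known from epithelia, had 17 counts in replicate 1 and 11 in replicate 2 and was not detected, nor was Rab15 with 12 and 7 counts. Of the 11 members 9 were detected.

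Late endosomal Rabs were fewer. Rab7, the main Rab of late endosomes and lysosomes, had 52.9 and 51.5 TPM in replicates 1 and 2. Rab24, linked to autophagy, had 40.9 and 33.0 TPM, but its locus overlaps Prelid1 on the opposite strand, which had 318 and 296 TPM, and no source used here states whether strand was kept. Rab9 and Rab7b had means of 3.97 ± 0.30 and 3.85 ± 0.79 TPM (SD, n = 2) and did not differ beyond their spread. Rab39 and Rab39b were not detected, and Rab9b had 0 counts in both libraries.

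Granule Rabs were led by an atypical member. Rab44 (GRCm38 chromosome 17, 29114145 to 29148980, plus strand), a long Rab known in mouse from mast cell degranulation, had 247 TPM in replicate 1 and 268 in replicate 2. By counts it was first of all Rab genes, with 799 and 837 CPM. Rab27a (chromosome 9, 73044854 to 73097629, plus strand), which docks granules at the plasma membrane, had 72.5 and 53.0 TPM, and Rab3d, also on secretory granules, 45.9 and 36.5. Rab27b, the relative of Rab27a, had 3.38 and 6.56 TPM. Rab38 and Rab32, both known from melanosomes and platelet dense granules, had 22.0 and 31.7 TPM and 27.0 and 12.7 TPM in replicates 1 and 2, so that Rab32 was higher in replicate 1 and Rab38 in replicate 2. Rab37, known from mast cell granules, had 15.5 and 26.6 TPM.

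The remaining granule members were low. Rab3a, of synaptic vesicles, had 8.25 and 7.38 TPM, but its locus overlaps Mpv17l2 on the opposite strand, with 85.7 and 70.2 TPM. Rab29 had 6.50 and 4.70 TPM. Rab26 was at 0.11 and 0.31 TPM, with 9 and 17.01 counts. Rab3b had 0 counts in replicate 1 and 3 in replicate 2, and Rab3c 1 and 0, so both lay at or under the floor of 3 counts. Of the 12 granule members 9 were detected. The group's sum was 448 TPM in each library, and Rab44 was the larger part of it in both.

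Rabs of cilia and other sites had 4 of 6 members detected, led by Rab28 with 14.6 and 15.7 TPM and Rab40c, which carries a SOCS box, with 13.4 and 11.4. Rab34 and Rab23, both linked to the primary cilium, had 4.42 and 3.03 TPM and 2.18 and 2.63 TPM in replicates 1 and 2. Little of this was assigned to transcripts annotated as protein-coding, whose TPM averaged 0.57 ± 0.14 for Rab34 and 0.06 ± 0.08 for Rab23 (SD, n = 2).

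The gene-level TPM of several members came mostly from transcripts that are not annotated as protein-coding in GENCODE M21. Among the 35 members with a mean TPM of 5 or more, this held for 5, Rab14, Rab4b, Rab27a, Rab3d and Rab12. It held for a larger share, 21.3%, of the 7653 protein-coding genes at that level, so it is not particular to the family. The same transcript came first in both libraries for all 35, and 14 had over 99% of their TPM in 1 transcript. With only protein-coding transcripts summed, a setting chosen after seeing the data, the members' TPM was 1887 in replicate 1 and 1811 in replicate 2, and 41 rather than 44 reached a TPM of 1 in both libraries.

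Rab14 rested almost wholly on such a transcript. Its transcript Rab14-203, of 355 bases, held 1200 and 1193 TPM in replicates 1 and 2, 97.5% and 97.7% of the gene. The full-length coding transcript Rab14-201, of 3081 bases, held 29.1 and 26.1 TPM. By expected counts, which do not divide by length, Rab14-203 still held 74.8% and 75.7%, and the gene ranked 4 among the Rab genes by counts and 15 by coding TPM. Rab14-203 joins the 5′ exon of the gene, of which all 170 stretches of 50 bases are also in Rab14-201, to an exon that lies within the first intron of Rab14-201. Of the other 12 Rab14 transcripts in GENCODE M21, 1 holds a 50-base stretch of that exon, the retained-intron transcript Rab14-210, which has no row among the 8 Rab14 transcripts of the deposited tables. The exon's 136 bases are shown because only reads in it or across its junction hold bases that Rab14-201 lacks. It lies at chr2:35199874-35200009 of GRCm38 on the minus strand.
Rab14-203 exon 2: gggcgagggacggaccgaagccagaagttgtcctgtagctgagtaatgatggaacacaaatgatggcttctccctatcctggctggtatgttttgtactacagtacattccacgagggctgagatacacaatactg

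The other 4 kept a larger coding share. Rab4b-208, annotated for nonsense-mediated decay, held 66.4% and 61.7% of Rab4b TPM in replicates 1 and 2, and 94.7% of its 50-base stretches also lie in coding transcripts of the gene. Rab27a-202, a retained-intron transcript of 1 exon, held 64.0% and 69.2% of Rab27a TPM, and the coding Rab27a-201 30.3% and 27.5%. Rab3d-205, a retained-intron transcript of 429 bases, held 60.3% and 60.1% of Rab3d TPM but 10.7% and 10.5% of its counts. Rab12-203, also with a retained intron, held 57.1% and 52.3% of Rab12 TPM and 35.0% and 33.9% of its counts. By counts, then, the most abundant transcript was not protein-coding for 3 of the 35, Rab14, Rab4b and Rab27a. That is again a smaller share than the 12.9% of protein-coding genes.

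**Figure D2:**
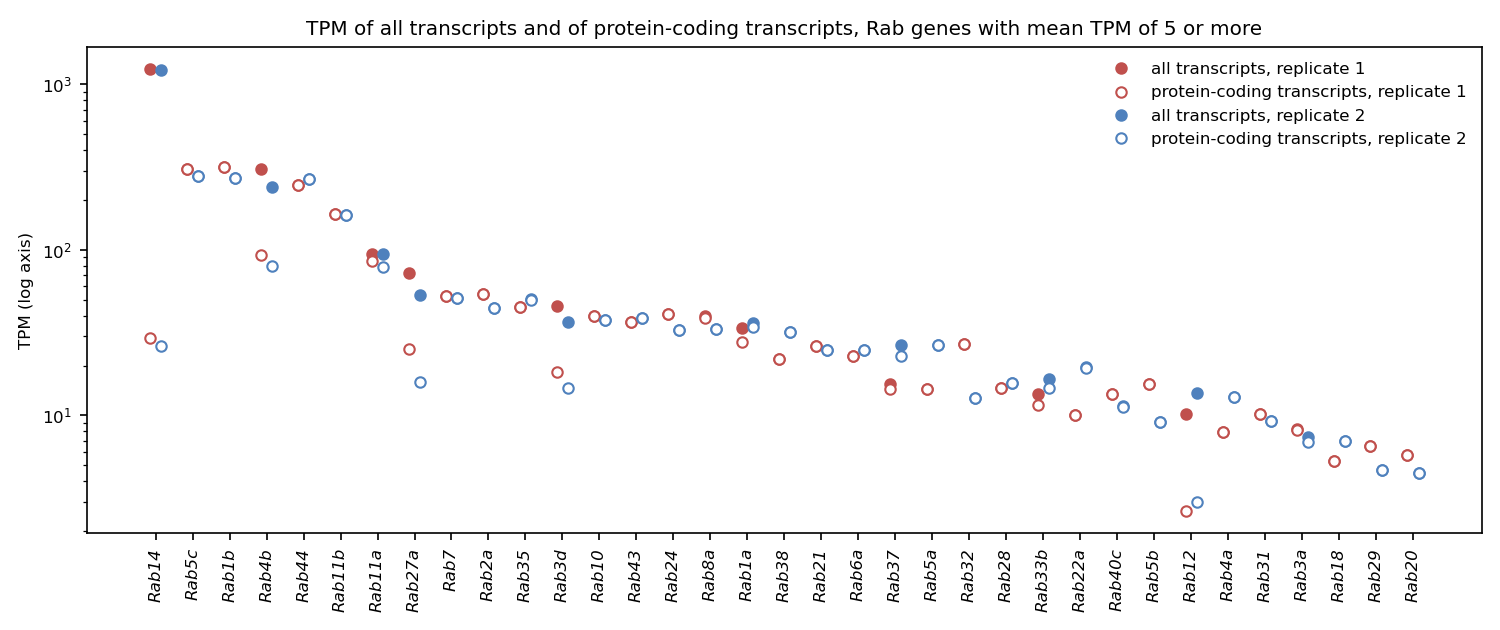
TPM on a log axis of the 35 Rab genes whose mean TPM was at least 5, filled circles for all transcripts and open circles for protein-coding transcripts, replicate 1 in red and replicate 2 in blue, ordered by mean TPM. The open circles drop below the filled ones most for Rab14, to 29.1 and 26.1 TPM, and next for Rab4b, Rab27a, Rab3d and Rab12; for most others they coincide.

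Of 23 pairs of related Rab genes, 18 were called, meaning the same order in both libraries, a mean log2 ratio of TPM + 0.01 over 1 in size and separate deposited TPM intervals in each library. The same rule called 81.9% of all 1711 pairs of Rab genes, so the count says nothing particular to relatives. With both genes detected it called 11 of 16 related pairs, against 73.0% of 946 pairs. Rab1a to Rab1b had a log2 ratio of -3.07 ± 0.24 (SD, n = 2), an 8.37-fold excess of Rab1b. Rab5a and Rab5b were 14.9-fold and 24.7-fold below Rab5c. Rab2a had 54.1 and 44.4 TPM, against 0.36 and 0.48 for Rab2b, which was not detected. Rab7 exceeded Rab7b 13.7-fold and Rab6a exceeded Rab6b 5.20-fold. Rab8a stood 8.67-fold above Rab8b and 8.92-fold above Rab13. The first gene of the pair was higher in 12 of the 18.

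Some called folds shrink when only protein-coding transcripts are summed. Rab4a was 26.8-fold below Rab4b by all transcripts and 8.49-fold by coding ones. Rab27a exceeded Rab27b 13.1-fold and 4.24-fold, and Rab3d exceeded Rab3a 5.23-fold and 2.16-fold. The order of each of these pairs was the same by both measures. Rab9 stood at least 318.58-fold above Rab9b in replicate 1 and at least 282.6-fold in replicate 2, taking 3 counts per library as the bound for Rab9b. Rab39 and Rab39b were both under detection and get no fold, with 0.09 and 0.16 TPM against 0 and 0.05. The rule still called this pair, so it is counted among the 18.

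The 5 pairs not called were Rab5a and Rab5b, Rab8a and Rab10, Rab11a and Rab11b, Rab22a and Rab31, and Rab32 and Rab38. Rab11a to Rab11b had nearly the same log2 ratio in both libraries, -0.80 ± 0.01 (SD, n = 2), but under the size required. Rab32 to Rab38 had a log2 ratio of 0.30 in replicate 1 and -1.32 in replicate 2, and Rab5a to Rab5b -0.08 and 1.54, so neither pair has an order over these cells. Rab22a to Rab31 had -0.03 and 1.08. There the TPM of Rab22a was 10.1 and 19.5 while its counts were 15.5 and 19.4 CPM, and the short transcript Rab22a-202 took 31.5% of its counts in replicate 1 and 52.6% in replicate 2. Coding sequences of the 23 pairs were 54.7% to 77.4% identical, and no 2 paired members shared a stretch of 50 bases in any transcript.

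**Figure D3:**
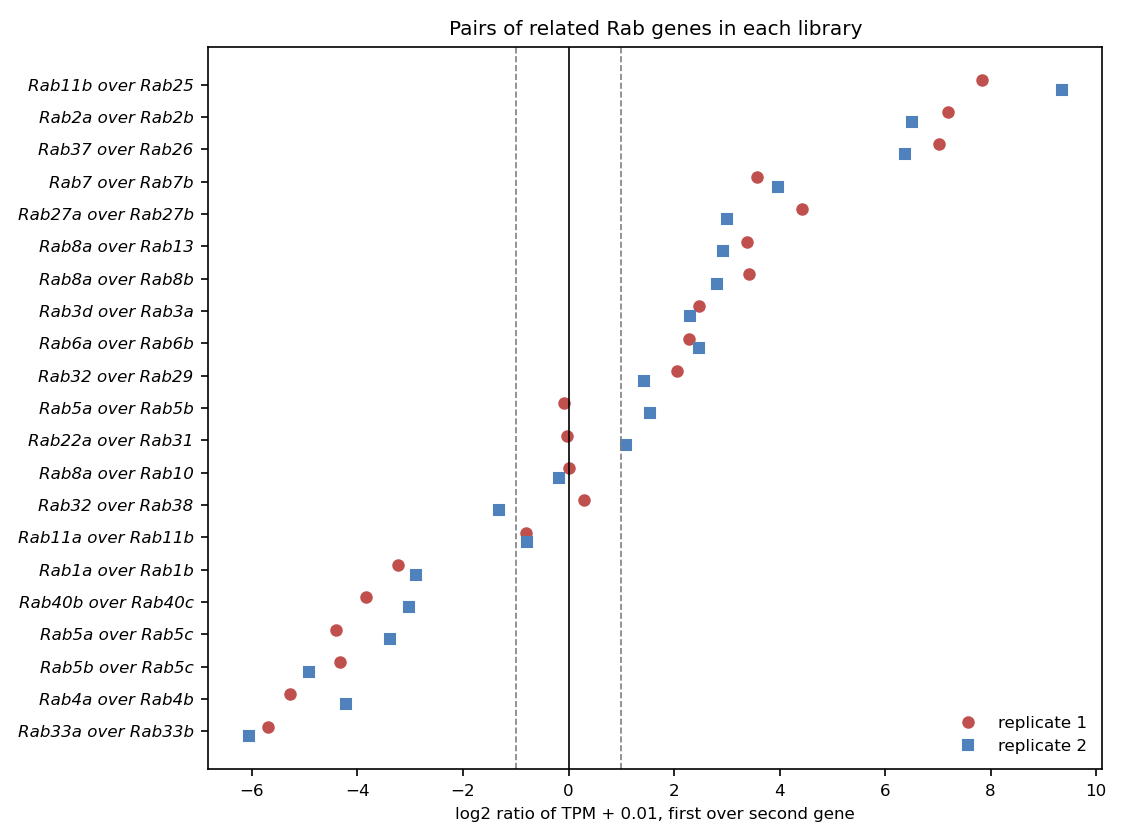
Log2 ratio of TPM + 0.01 of the first over the second gene for 21 pairs of related Rab genes, circles replicate 1 and squares replicate 2; dashed lines mark a 2-fold ratio, and the pairs of Rab9 and Rab39 with a member at or near 0 are left out. In 4 pairs near the centre the libraries fall on opposite sides of 0, and Rab11a over Rab11b lies at -0.81 and -0.79.

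Most Rab genes with a mean TPM of at least 5 were less than 2-fold apart between the 2 libraries. On CPM scaled by TMM, 1 of the 35 members with a mean TPM of at least 5 was over 2-fold apart and had separate TPM intervals, against 1.37% of 7653 protein-coding genes. That member was Rab32 (chromosome 10, 10545002 to 10558265, minus strand), 2.28-fold higher in replicate 1 with 3519 counts in replicate 1 and 1317 in replicate 2. No member was that far higher in replicate 2. The background was 1.03% for replicate 1 and 0.34% for replicate 2. At so low a share, a count of 1 says nothing particular to the family.

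Smaller distances involved other granule and endosomal members. Rab5b was 1.80-fold and Rab27a 1.52-fold higher in replicate 1, and Rab5a was 1.71-fold and Rab37 1.52-fold higher in replicate 2. With Rab32 these are the members with a mean TPM of at least 5 that were over 1.5-fold apart with separate intervals, 3 in replicate 1 and 2 in replicate 2, against 5.07% and 3.20% of protein-coding genes. Rab27b, just under that level with a mean of 4.97 TPM, was 1.80-fold higher in replicate 2. The median log2 difference of the 35 members, replicate 1 minus replicate 2, was 0.15, against 0.02 for all protein-coding genes tested. The median size of the difference was larger in the members, 0.27 against 0.19 for all protein-coding genes tested. Rab32 had all of its TPM in 1 transcript and whole counts in both libraries.

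Some markers of other cell types moved between the same libraries. All 7 matched neutrophil and monocyte granule genes were higher in replicate 1, and 3 of them, Prtn3, Elane and Cd14, were apart by the same rule. Elane, a serine protease of neutrophil granules, had 8624 TPM in replicate 1 and 4337 in replicate 2. The lymphoid list summed to 97.9 and 38.6 TPM, with Nkg7, Cd79a and Pax5 apart and Cd3e at 0.33 and 0.31 TPM. Of the 10 erythroid and megakaryocytic genes, 9 were higher in replicate 2, and the mast cell and basophil list summed to 300.2 and 441 TPM, most of it Gata2, which was higher in replicate 2. Its other 3 detected genes were only 1.02-fold to 1.20-fold higher in replicate 1 on scaled CPM, and by TPM not all of them were higher there. No gene of that list was apart by the 2-fold rule. Fcer1a was not detected, at 0.29 and 0.16 TPM. The part of these cells in the distances of the Rab genes was not tested.

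**Figure D4:**
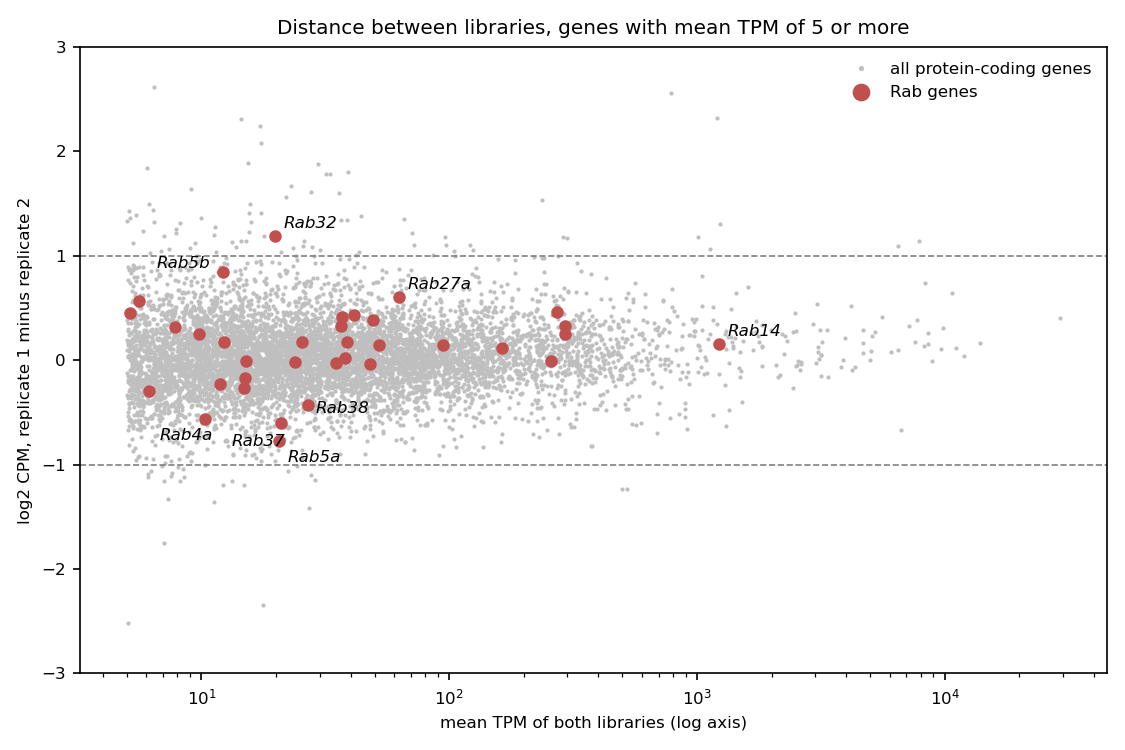
Log2 CPM of replicate 1 minus replicate 2 against mean TPM on a log axis for the 7653 protein-coding genes whose mean TPM was at least 5 (grey) and the 35 Rab genes among them (red); dashed lines mark a 2-fold distance, and 1 grey gene lies below the axis range. Rab32 is above the upper line at 1.19, and the other 34 Rab genes lie between the lines.

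Transcripts of the proteins that prenylate and recycle Rabs were present at unequal levels. Of 8 genes 6 were detected, against the 46.9% above. Rabac1, a Rab acceptor of the Golgi, had 332 and 288 TPM in replicates 1 and 2, and Gdi2 had 55.0 and 49.1. Rabggta, a subunit of the enzyme that adds the lipid tails, had 27.0 and 24.8 TPM, but Rabggtb, its other subunit, had 1.58 and 2.34. Chm and Chml, the escort proteins that present Rabs to that enzyme, were under 1 TPM in both libraries, with 0.98 and 0.68 TPM for Chm.

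Most of the listed regulators were detected. Of 36 GEF genes matched 30 were detected, and of 35 GAP genes 31, against 46.9% of protein-coding genes. Among GEFs the highest were Hps1, a subunit of the GEF of Rab32 and Rab38, with 285 and 250.1 TPM but 65.4 and 68.0 in protein-coding transcripts, and Rin3, a GEF of the Rab5 group, with 287 and 202 TPM, 276 and 190.2 of it coding. Ankrd27, which binds Rab32 and Rab38, had 85.6 and 129 TPM, and Sbf1 had 175 and 231. Dennd2c and Sbf2 were lowest, both with a mean of 0.19 TPM. The highest GAPs were Tbc1d9b with 90.7 and 102 TPM and Tbc1d17 with 66.9 and 67.6, though the protein-coding transcripts of Tbc1d17 held 1.20 and 0.69 TPM. Tbc1d10b, of a group of GAPs that includes one for Rab27, had 59.7 and 62.7 TPM, and Tbc1d30 was lowest with 0.02 and 0.10.

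Of the effectors, those of endosomes were all detected, against 46.9% of protein-coding genes. The 23 matched endosomal effectors were led by Rilpl2 with 95.5 and 114 TPM and Appl2, which binds Rab5, with 87.7 and 73.9. Of the 19 genes listed as granule effectors 9 were detected, which is near the 46.9% of protein-coding genes. That list also holds proteins of membrane fusion that are not Rab effectors. Among these is Stxbp2 (Munc18-2), which led the list with 444 and 433 TPM. Unc13d (Munc13-4), the Rab27a effector that primes granules, came next with 88.5 and 108. In protein-coding transcripts alone Stxbp2 had 74.0 and 80.97 TPM and Unc13d 76.5 and 93.0, the opposite order. Myo5a, the motor that Rab27a engages on melanosomes, had 36.5 and 40.3 TPM. Sytl5 and Rims2 were listed at 0. BLOC and AP-3 genes build lysosome-related organelles and sort cargo to them. Their list had 17 of 18 members detected, against the same 46.9%, with Ap3s1 at 348 and 231 TPM and Lyst at 0.94 and 0.67. Between 5 and 24 genes of each partner list had a mean TPM of 5 or more. None of these was apart between the libraries by the 2-fold rule, against 1.37% of protein-coding genes. At so low a background share, the absence of calls says nothing particular to these lists. Genes below that level were not part of this count.

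Rab-like GTPases outside the name pattern were also present. Of 7 genes 5 were detected, against 46.9% of protein-coding genes. Ran, the GTPase of nuclear transport, led with 4309 and 3570 TPM, of which protein-coding transcripts held 468 and 457. Ift27, of cilia, had 164 and 150.2 TPM, and Rasef was listed at 0.

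Sharing of reads and sequence with other genes was looked at in 3 ways. Expected counts, as deposited to 2 decimals and with no tolerance, were whole in both libraries for 55 of 59 members. Of the 44 detected members 3 had a count that was not whole, Rab4b, Rab11b and Rab8b. The share was 9.75% for detected protein-coding genes, so the small count says nothing particular to the family. Of 1711 pairs of members, 1 shared stretches of 50 bases, Rab11b and Rab4b, with 21 of them. Of the pseudogenes named after Rab genes, Rab11b-ps2 shared 555 such stretches with Rab11b, and Rab9b-ps1 shared 110 with Rab9. Rab11b-ps2 had 4.85 and 1.07 counts in replicates 1 and 2. Another annotated gene overlaps 26 members, 19 of them on the opposite strand and 10 on the same strand. Rab4a is overlapped by Gm20388 on the same strand, with 15.0 TPM in replicate 1 and 9.53 in replicate 2, and Rab26 by Traf7, with 249.6 and 259 TPM. The deposited TPM lay outside its own interval for Rab5c, Rab1b and Rab44 among members at a mean TPM of 5 or more.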

How the data were processed

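Per the labels, the RNA was selected for poly(A), read from both ends and placed on mm10. A deposited text file names GENCODE M4 as annotation. No source used here names the aligner or quantifier or says how strand was handled. Per the file headers, the authors deposited expected counts for genes and transcripts, which need not be whole numbers. The deposited TPM and FPKM values are scaled for length and library, the deposited percent columns hold transcript shares, and the deposited TPM intervals describe the uncertainty of read assignment in a single library. Depth is given with the results; floors cover counting error only.

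Of 43346 gene identifiers, 42462 matched GENCODE M21, which gave symbols, types, transcripts and coordinates (GRCm38). Some transcript types may differ from those of GENCODE M4. Expected counts were rounded and scaled by TMM (edgeR 4.0.16, R 4.3.3) to log2 CPM (prior count 2). Size factors of DESeq2 1.42.0 were an alternative. List medians used a pseudocount of 1 TPM and ratios one of 0.01 TPM. Coding sequences run from ATG to a stop codon. Other steps used Python 3.11.15, numpy 2.4.6, pandas 2.3.3 and Biopython 1.88, and scaling was tested on simulated data.

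The members, their grouping by compartment (from textbook roles), the 23 pairs and the partner and marker lists were chosen with earlier results of these data known. All members and pair genes may be named. Of each list, so may the 4 highest and 2 lowest by mean TPM, ties at 0 included, and every gene apart between the libraries. Rabggtb was named beside Rabggta as an exception. Some items that this rule would name are not reported here. Alternatives changed the unit, threshold, pseudocount, filter, scaling and interval condition or left out 1 library.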

Additional observations from a re-analysis of the deposited data

Results flagged for a closer look

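2 antisense genes named after Rab genes lie outside the family as defined and had counts above the floor of 3. There are no control samples. Rab10os, on the strand opposite Rab10, had 4503 estimated counts in replicate 1 and 3928 in replicate 2 (53.8 and 58.0 TPM), beside 39.7 and 37.9 TPM for Rab10. Rab26os, opposite Rab26, had 40 counts in replicate 1 and 36 in replicate 2, beside 9 and 17.01 for Rab26. Without known strand handling, whether reads of such overlapping genes were told apart where they overlap is not known. The expected counts of Rab10, 8868 and 6738, and of Rab10os were whole in both libraries. This was not tested further.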

How the results depend on the processing

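No paired analysis was possible because there was 1 group. The number of members with a mean of 10 or more was 30 in TPM, and 28 to 32 in the other units, with coding transcripts only and with either library left out. Detected members numbered 44, and 33 to 46 at thresholds from 5 to 0.5 TPM. Requiring only an interval bound above 0 gave all 59, Rab9b with its 0 counts included, so that bound does not show detection. The members' median log2(TPM + 1) of 3.51 was 3.39 with a pseudocount of 0.1 TPM, 4.41 over detected members, 3.42 with coding transcripts only, and 3.35 to 3.47 with 1 library left out. Called pairs numbered 17 to 21 against 18, and none changed order; without replicate 1, Rab5a and Rab5b, Rab22a and Rab31, and Rab32 and Rab38 were called too, on 1 library each. Members apart between the libraries numbered 1, and 2 without a filter on low values, which added Rab39b with 0 counts in replicate 1 and 9 in replicate 2, and 1 under each of the other 5 settings. Leaving out a library gives no value for that distance. Members whose most abundant transcript was not protein-coding numbered 5 by TPM and 3 by share of counts. Detected partner genes numbered 119 of 144, and 90 to 125 under the alternatives. Genes under a mean of 5 TPM were compared between libraries only in the settings that lower or drop that filter.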

Other observations

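RefSeq (GRCm38.p6) gives 60 windows of 250 bases before a start for 48 of the 59 members, 45 of them for detected members. The letters GGGCGG (a GC box), searched on both strands, were in 68.9% of the windows of detected members, against 59.9% of 10251 windows of detected protein-coding genes and 32.7% of all 32851 windows. The ETS motif CCGGAA was in 17.8%, against 23.1% of windows of detected genes, the E-box CACGTG in 11.1%, against 8.60%, and the GATA motif AGATAA in 4.44%, against 5.57%. These differences were not tested, and a match is a description of the letters and not a site.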
